A study of Mus musculus with 9 samples.

Results

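The angiopoietins and Tie receptors are described here across cultured adipose-derived stem cells (ASCs) from 3 mouse fat depots. The family was taken by gene name from the table of read counts. It has 5 members of the 54532 genes listed, namely the ligand genes Angpt1, Angpt2 and Angpt4 and the receptor genes Tek, which encodes Tie2, and Tie1. All 5 were among the 16526 genes with enough reads to be tested. The authors isolated the cells from the fat of C57BL/6 mice, taken under the skin for Sub-ASCs, from the abdomen for Ab-ASCs and around vessels for PVASCs. Cultures at passages 3 to 6 were then harvested for mRNA sequencing. Each group had 3 libraries, and no group had been treated beyond a stem cell medium with serum, leukemia inhibitory factor and FGF that all groups shared. The sources used here do not give the age of the mice, whether animals were pooled, or whether libraries of a group came from separate cultures. The p-values below therefore measure the spread between these libraries, which may be technical. The members were selected on their measured fold changes between these depots, since Tek and Tie1 can differ in direction. For this reason the levels and differences of the 5 members are given as a description, without a test.

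Angiopoietins are secreted ligands of the receptor tyrosine kinase Tie2 on endothelial cells. Angpt1 is made mainly by mesenchymal and mural cells around vessels, activates Tie2 and stabilises the endothelium. Angpt2 is made mainly by endothelial cells and acts on Tie2 as a weak agonist or an antagonist, depending on the context. Angpt4 is a further Tie2 ligand, found in fewer tissues. Tie1 is not known to bind angiopoietins strongly on its own and modulates Tie2 as a partner receptor. Adipose stromal cells line the small vessels of fat tissue, next to the endothelium.

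Regulatory sequence was at hand for the promoters of Angpt4, Tek and Tie1. It is shown as a description, and a link to the ranking of depots was not tested. The bases before the transcription start are from RefSeq on GRCm38.p6, on the strand of each gene, with the letters GGAA or TTCC (the core of ETS factor sites on either strand) and GATA or TATC (the core of GATA factor sites) in capitals. For Tie1, only the part upstream of every annotated exon of the gene is printed.
Tek promoter, chr4:94739039-94739288, plus strand: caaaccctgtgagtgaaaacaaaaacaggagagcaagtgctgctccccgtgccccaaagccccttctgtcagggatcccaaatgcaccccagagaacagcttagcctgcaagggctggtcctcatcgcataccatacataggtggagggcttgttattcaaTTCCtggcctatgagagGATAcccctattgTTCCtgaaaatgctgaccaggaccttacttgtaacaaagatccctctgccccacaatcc
Angpt4 promoter, chr2:151910957-151911206, plus strand: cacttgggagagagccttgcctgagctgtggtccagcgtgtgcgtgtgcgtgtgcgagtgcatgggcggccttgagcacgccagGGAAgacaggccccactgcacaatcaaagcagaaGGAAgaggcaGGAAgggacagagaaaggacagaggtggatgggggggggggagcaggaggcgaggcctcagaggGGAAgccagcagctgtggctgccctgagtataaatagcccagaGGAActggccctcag
Tie1 upstream sequence, chr4:118490062-118490099, minus strand: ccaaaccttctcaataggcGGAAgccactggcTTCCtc
Of the 250 bases before the RefSeq start of Tie1, 212 lie in exons of the gene in the GENCODE annotation, so letters were compared with other promoters for Angpt4 and Tek alone. In the 250 bases before the start, the letters GGAA were found on either strand 5 times for Angpt4 and 2 times for Tek. At least 5 matches were found in 18% of all 32851 promoters and at least 2 in 76.8%. The letters GATA were found 1 time for Tek, as they were at least once in 53.6% of promoters, and not for Angpt4. The Forkhead letters GTAAACA and the hypoxia response letters ACGTG were searched on both strands too and were not in either window. They were found in 3.17% and 16.6% of promoters. These matches describe the letters of the windows and not sites bound by a factor.

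Reads counted per library ranged from 20524173 to 29881036. At these depths 3 reads correspond to 0.0916 to 0.161 CPM (read counts scaled to library depth by edgeR's TMM method). Depots differed broadly, with 70.4% of the genes tested called in PVASCs relative to Sub-ASCs (34.7% higher and 35.7% lower, by edgeR's quasi-likelihood test at a Benjamini-Hochberg adjusted p below 0.05). Relative to Ab-ASCs, 56.9% were called in PVASCs (24.7% higher and 32.1% lower). Ab-ASCs relative to Sub-ASCs had 75.3% called (37% higher and 38.3% lower). Ab-ASC replicate 1 stood apart from the other Ab-ASC libraries more than any other replicate did within its group. Of 10 listed markers of the labelled cell type, 6 fell and 4 rose from Sub-ASCs to PVASCs by this test. Thy1 (CD90) and Eng (CD105) were among those that rose, and were well expressed in each depot. Ly6a (Sca1) fell from 2047 CPM in Sub-ASCs to 111 CPM in PVASCs and 21.8 CPM in Ab-ASCs. In the same order, Dpp4 was at 71.0, 1.38 and 8.49 CPM and Pdgfra at 2707, 331 and 443 CPM. Col3a1 was at 9098, 1108 and 1207 CPM, and Cd34 at 128, 94.9 and 14.0 CPM. By the authors' flow cytometry, PVASCs carried surface Sca1, CD90 and CD105 but lacked CD45 and CD31. Transcripts of Pecam1 (CD31), a defining endothelial gene, were present in every group, at a mean of 45.3 CPM in Sub-ASCs, 12.5 CPM in Ab-ASCs and 179.5 CPM in PVASCs.

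The 3 comparisons below share libraries and are not independent of each other. The family split into 2 patterns. Angpt2 and Tie1 were highest in PVASCs, intermediate in Sub-ASCs and lowest in Ab-ASCs. Angpt1 and Tek were highest in Sub-ASCs, intermediate in PVASCs and lowest in Ab-ASCs, and Angpt4 had this ranking of means too, with Ab-ASC and PVASC libraries overlapping. PVASCs thus carried much more Tie1 and less Tek than Sub-ASCs, while Ab-ASCs had the least of all 5 transcripts. Between PVASCs and Sub-ASCs, the libraries of the groups did not overlap for 5 of the 5 members, where 77.3% of all genes tested did not overlap. Between Ab-ASCs and Sub-ASCs this held for 5 members as well, against 76.5% of all genes. It held for 4 members between PVASCs and Ab-ASCs, against 63.9% of all genes.

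**Figure D1:**
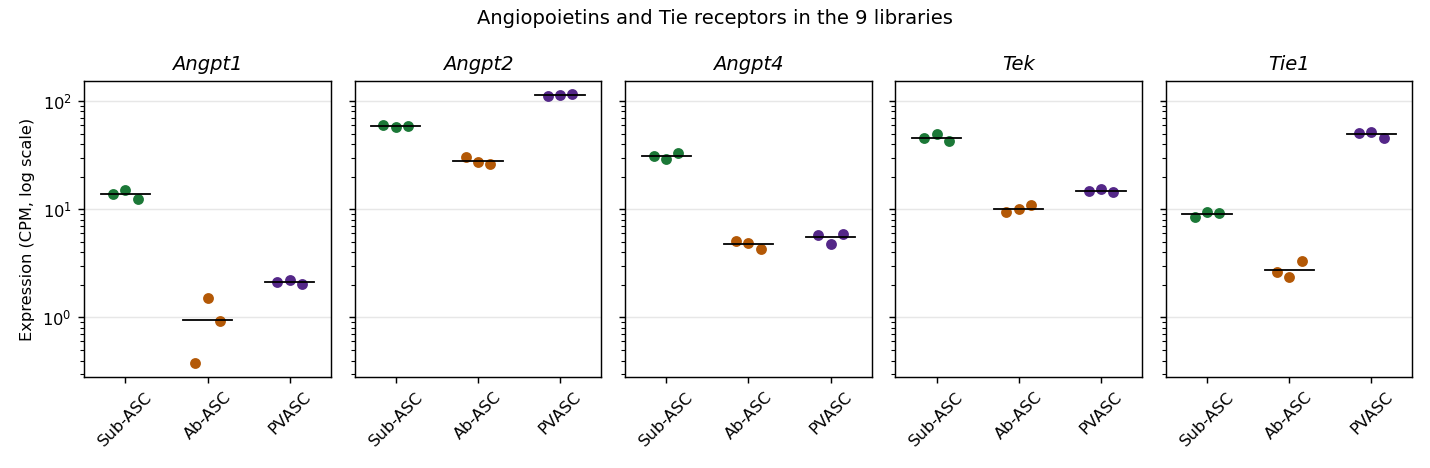
Expression of the 5 genes in each library, as CPM on a logarithmic axis, by depot. Points are the 3 libraries of a group and the black line is their mean. Angpt2 and Tie1 are highest in PVASCs, and the other genes in Sub-ASCs.

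Tie1, the partner receptor, is a gene of 23 exons on chromosome 4 (GRCm38), at 118471191 to 118490061 on the minus strand. PVASC libraries had 1640, 1542 and 1426 Tie1 reads, or 50.1, 52.2 and 45.3 CPM. Its values in Sub-ASCs were 8.45, 9.46 and 9.26 CPM, and in Ab-ASCs 2.63, 2.35 and 3.30 CPM. All PVASC libraries therefore lay far above the others, and every Sub-ASC library lay above every Ab-ASC library. The mean was 49.2 ± 3.53 CPM in PVASCs, 9.06 ± 0.536 CPM in Sub-ASCs and 2.76 ± 0.485 CPM in Ab-ASCs (SD, n = 3). PVASCs exceeded Sub-ASCs 5.43-fold, with a fitted log2 fold change of 2.44 (SE 0.10). They exceeded Ab-ASCs 17.8-fold, with a log2 fold change of 4.15 (SE 0.11). For Ab-ASCs against Sub-ASCs the log2 fold change of Tie1 was -1.71 (SE 0.13). Of all genes tested, 1.15% had a larger absolute log2 fold change than Tie1 between PVASCs and Ab-ASCs, 12.9% between PVASCs and Sub-ASCs and 21.2% in the remaining comparison. Over the other members this share ran from 5.98% for Angpt2 to 71.0% for Angpt4, both between PVASCs and Ab-ASCs.

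Tek encodes Tie2, the receptor that all angiopoietins bind. It lies on the plus strand of chromosome 4, from 94739289 to 94874976, and also has 23 exons in its longest transcript. In Sub-ASCs 1069, 1262 and 1115 reads were counted on Tek, or 45.9, 49.6 and 42.5 CPM. PVASC libraries had 14.7, 15.4 and 14.4 CPM, and Ab-ASC libraries 9.44, 10.04 and 10.9 CPM. The 3 groups were separate, with Sub-ASCs well above the others and a narrow gap between PVASCs and Ab-ASCs. Means of Tek were 46.0 ± 3.54 CPM in Sub-ASCs, 14.8 ± 0.493 CPM in PVASCs and 10.1 ± 0.718 CPM in Ab-ASCs (SD, n = 3). Against Sub-ASCs, Tek was 3.10-fold lower in PVASCs, with a log2 fold change of -1.63 (SE 0.08), and 4.54-fold lower in Ab-ASCs, with a log2 fold change of -2.18 (SE 0.08). PVASCs had 1.46 times the Tek level of Ab-ASCs, a log2 fold change of 0.55 (SE 0.09). Tek and Tie1 thus went in opposite directions between PVASCs and Sub-ASCs, and in the same direction in the other comparisons.

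Levels of different genes were compared per length, as FPKM (read counts scaled for library depth and for the listed gene length). In Sub-ASCs, the FPKM of Tek was 9.76 ± 0.751 and that of Tie1 1.84 ± 0.109. PVASCs showed the reverse balance, with 3.15 ± 0.105 for Tek and 10.01 ± 0.718 for Tie1 (SD, n = 3). The ratio of Tek to Tie1 FPKM was 5.66, 5.46 and 4.79 in the Sub-ASC libraries and 3.75, 4.45 and 3.44 in the Ab-ASC libraries. In the PVASC libraries it was 0.305, 0.307 and 0.332. PVASC was the group in which Tie1 exceeded Tek, and it did so in all 3 libraries. Tie1 made up 76.1% ± 0.862 of the summed FPKM of the receptors in PVASCs. Its share was 15.9% ± 1.20 in Sub-ASCs and 20.6% ± 2.12 in Ab-ASCs (SD, n = 3). The sum itself was 13.2 ± 0.810 FPKM in PVASCs and 11.6 ± 0.780 FPKM in Sub-ASCs, with overlapping libraries, and 2.71 ± 0.236 FPKM in Ab-ASCs.

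**Figure D2:**
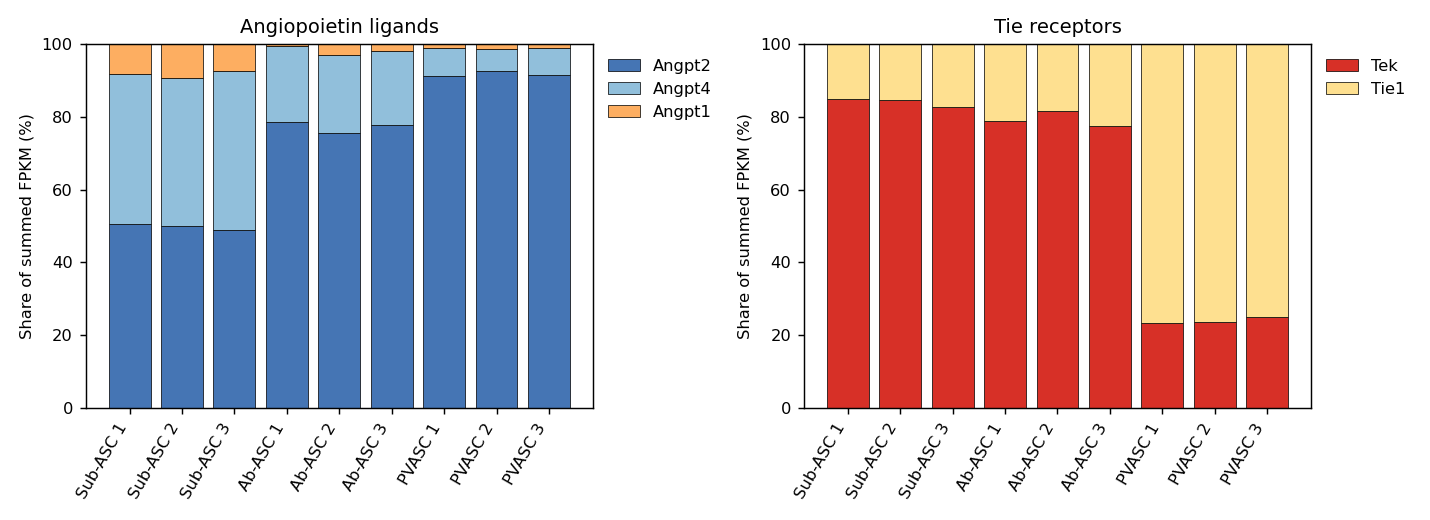
Share of each ligand gene (left) and each receptor gene (right) in the summed FPKM of its class, in percent, with a bar for each library. Angpt2 fills 91.1% to 92.6% of the ligand bar in PVASCs, and Tie1 75.1% to 76.6% of the receptor bar.

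Angpt2, the context-dependent ligand, had the highest FPKM of the family in each depot. Its gene lies on chromosome 8, at 18690263 to 18741562 of the minus strand, within the span of Mcph1 on the other strand, but the exons of these genes do not overlap. PVASC libraries had 3603, 3338 and 3612 reads on Angpt2, or 110, 113 and 115 CPM. In Sub-ASCs it was at 59.6, 57.2 and 58.2 CPM, and in Ab-ASCs at 30.4, 27.1 and 26.3 CPM. The groups were separate, and each was tight around its mean. Angpt2 in PVASCs was 1.93 times the Sub-ASC level (log2 fold change 0.95, SE 0.06) and 4.03 times the Ab-ASC level (log2 fold change 2.01, SE 0.06). Ab-ASCs had 2.09-fold less Angpt2 than Sub-ASCs, a log2 fold change of -1.06 (SE 0.06). By FPKM, its mean was above that of 90.5% of the genes tested in PVASCs, of 81.2% in Sub-ASCs and of 66.1% in Ab-ASCs.

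Angpt1, the activating ligand, had the lowest FPKM of the family in PVASCs and Ab-ASCs. It lies on chromosome 15, at 42424723 to 42676977 of the minus strand. In Sub-ASCs 322, 384 and 329 reads were counted on Angpt1, or 13.8, 15.1 and 12.5 CPM. PVASC libraries had 69, 66 and 64 reads, or 2.11, 2.23 and 2.03 CPM, and Ab-ASC libraries only 7, 34 and 21 reads, or 0.376, 1.51 and 0.936 CPM. Sub-ASC libraries were far above all others, and the Ab-ASC libraries were the most scattered of any member and group. Their counts have exact 95% Poisson intervals of 2.81 to 14.4, 23.6 to 47.5 and 13.0 to 32.1 reads, which cover counting error only. Angpt1 was 6.50-fold lower in PVASCs than in Sub-ASCs (log2 fold change -2.70, SE 0.19) and 14.7-fold lower in Ab-ASCs than in Sub-ASCs (log2 fold change -3.82, SE 0.23). The log2 fold change of PVASCs against Ab-ASCs was 1.13 (SE 0.29), and 0.79 without Ab-ASC replicate 1. That of Ab-ASCs against Sub-ASCs ran from -4.33 to -3.49 when single libraries were left out. Exons of Angpt1 share 737 bases with Gm17473, an antisense gene with at most 4 reads in any library. Whether the counting used strand is not given in the sources used here.

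Angpt4 encodes the third ligand and lies on the plus strand of chromosome 2, from 151911210 to 151945337. Its level was 30.8, 29.3 and 32.7 CPM in the Sub-ASC libraries. It was 5.83, 4.74 and 5.88 CPM in PVASCs and 5.04, 4.89 and 4.32 CPM in Ab-ASCs, and the lowest PVASC library lay within the Ab-ASC range. Angpt4 was 5.64-fold lower in PVASCs than in Sub-ASCs (log2 fold change -2.49, SE 0.10) and 6.52-fold lower in Ab-ASCs (log2 fold change -2.71, SE 0.11). Between PVASCs and Ab-ASCs, whose libraries overlapped, the log2 fold change was 0.21 (SE 0.12).

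The makeup of the ligands differed between depots as well. Sub-ASCs had nearly as much Angpt4 as Angpt2, with shares of 41.8% ± 1.56 and 49.9% ± 0.766 of the summed ligand FPKM, and 8.38% ± 0.944 Angpt1 (SD, n = 3). In PVASCs, Angpt1 made up 1.23% ± 0.0749, Angpt2 91.7% ± 0.756 and Angpt4 7.06% ± 0.807. The groups differed most in Angpt2 and Angpt4. Ab-ASCs lay between them for these 2 ligands, with 77.3% ± 1.67 Angpt2 and 20.8% ± 0.677 Angpt4. Their Angpt1 share of 1.88% ± 1.15 ranged from 0.689% to 2.99%, which took in the PVASC range of 1.15% to 1.30%. The ratio of Angpt2 to Angpt1 FPKM was 5.35 to 6.55 in Sub-ASCs, 71.3 to 79.6 in PVASCs and 25.3 to 114 in Ab-ASCs, where it rested on few Angpt1 reads. Summed ligand FPKM was 31.7 ± 0.676 in Sub-ASCs, 33.3 ± 0.670 in PVASCs and 9.78 ± 0.665 in Ab-ASCs (SD, n = 3). The ligand sums of Sub-ASCs (30.95 to 32.2 FPKM) and PVASCs (32.7 to 34.02 FPKM) lay close without overlapping.

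**Figure D3:**
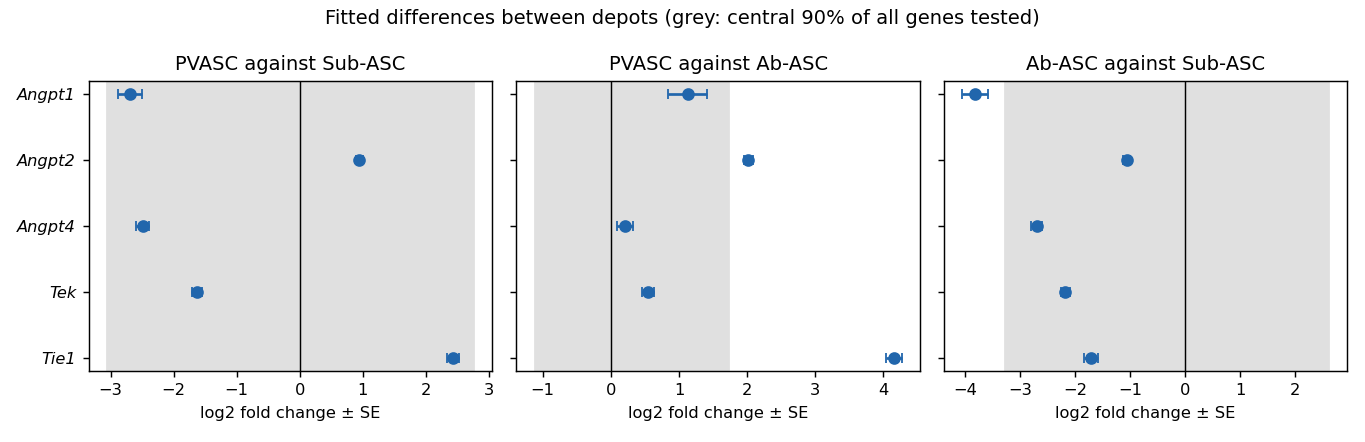
Fitted log2 fold change of each gene with its standard error in the 3 comparisons. The grey band holds the central 90% of all 16526 genes tested. Tie1 and Angpt2 lie outside the band between PVASCs and Ab-ASCs, and Angpt1 lies outside it between Ab-ASCs and Sub-ASCs.

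Endothelial genes moved with Tie1 and Angpt2. Of 22 endothelial markers, all tested, 20 were higher in PVASCs than in Ab-ASCs and none was lower, with a median log2 fold change of 3.26 where that of all genes was -0.055. Against Sub-ASCs, 19 were higher in PVASCs and 1 was lower, with a median of 1.82 (all genes -0.011). Ab-ASCs had 19 lower and 1 higher than Sub-ASCs, with a median of -1.54 (all genes -0.026). Of all genes, 24.7% were higher in PVASCs than in Ab-ASCs and 34.7% higher than in Sub-ASCs. A share of 38.3% was lower in Ab-ASCs than in Sub-ASCs. Emcn, a sialomucin of capillary and venous endothelium, was at 279 CPM in PVASCs and 10.6 CPM in Ab-ASCs (log2 fold change 4.71, adjusted p = 3.47e-12). Cdh5, the VE-cadherin of endothelial junctions, was at 209, 46.5 and 17.2 CPM in PVASCs, Sub-ASCs and Ab-ASCs (adjusted p = 3.72e-12 for PVASCs against Sub-ASCs and 1.86e-12 against Ab-ASCs, edgeR). Plvap, of endothelial fenestrae and caveolae, had a log2 fold change of 3.99 between PVASCs and Ab-ASCs (adjusted p = 2.77e-11), and Pecam1 one of 3.85 (adjusted p = 3.05e-12).

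The ranking of Tie1 and Angpt2, with PVASCs above Sub-ASCs above Ab-ASCs and no overlap between neighbours, was found in 17 of the 22 endothelial markers and in 2.69% of all genes tested. Ptprb also belongs to this list and is described below with the regulators. The ranking of Tek and Angpt1 was held by none of the markers and by 10.1% of all genes. The exceptions are named here after their values were seen. Flt1, a VEGF receptor, was lowest in Sub-ASCs. Flt4 did not differ between Ab-ASCs and Sub-ASCs by the test (adjusted p = 0.217). Vwf was at 1.74 to 2.46 CPM and Sox17 at 1.92 to 2.75 CPM in all groups, and Cldn5, a tight junction gene, was highest in Sub-ASCs, with a log2 fold change of -3.50 for PVASCs and -3.27 for Ab-ASCs. Summed over the list, endothelial markers were at 344 to 351 FPKM in PVASC libraries, 79.8 to 83.9 FPKM in Sub-ASC libraries and 27.8 to 30.1 FPKM in Ab-ASC libraries, and none was at 0 reads in any group. Their part in the Tie1 and Angpt2 differences was not tested. In bulk libraries, fewer cells of a type and less RNA per cell cannot be told apart.

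**Figure D4:**
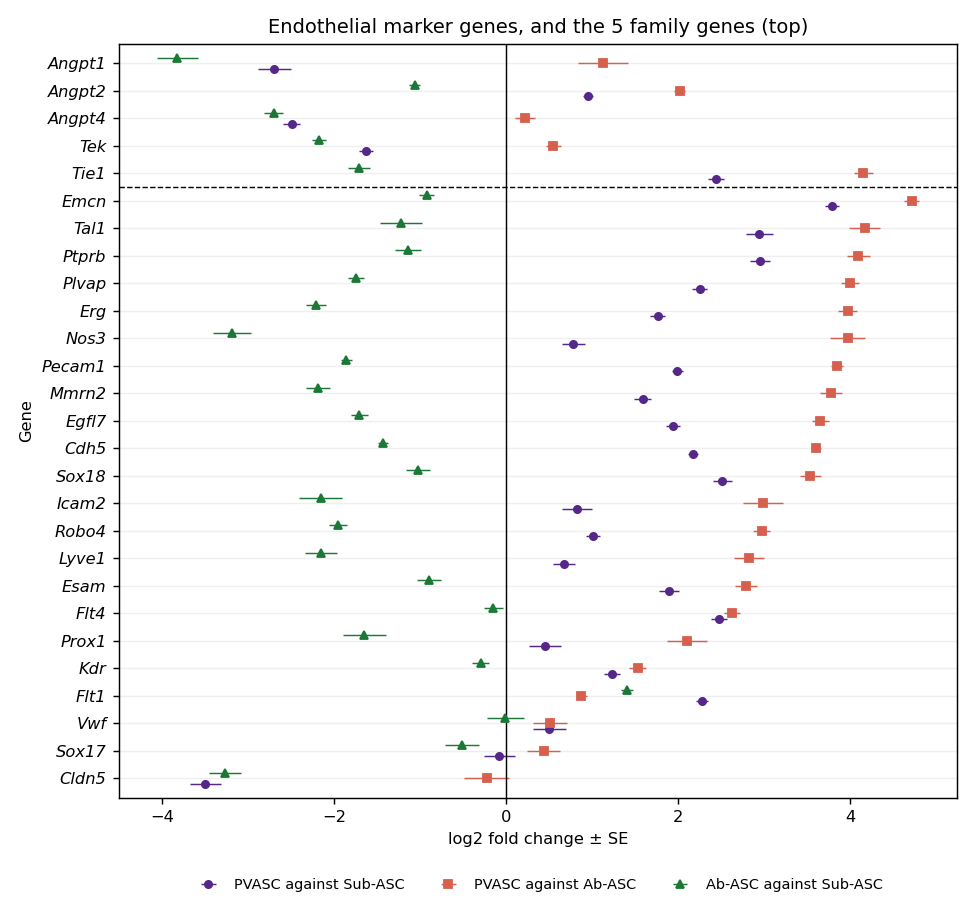
Fitted log2 fold changes with standard errors for the 22 endothelial markers and, above the dashed line, the 5 family genes. Circles are PVASCs against Sub-ASCs, squares PVASCs against Ab-ASCs and triangles Ab-ASCs against Sub-ASCs, and the comparisons share libraries. Most markers show circles and squares above 0 and triangles below 0, as Tie1 and Angpt2 do.

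The receptors were also set against Cdh5 and Pecam1 within each library. Cdh5 and Pecam1 were among the genes nearest to Tie1 in pattern (below), so a like ratio of Tie1 to them in all depots follows in part from that choice. The ratio of Tie1 to Cdh5 FPKM was 0.167 ± 0.0100 in Sub-ASCs, 0.137 ± 0.0225 in Ab-ASCs and 0.201 ± 0.0135 in PVASCs (SD, n = 3). The ratio of Tek to Cdh5 was 0.882 ± 0.0267, 0.525 ± 0.0240 and 0.0633 ± 0.00211 in the same order. Against Pecam1 the ratio of Tie1 was 0.253 ± 0.00637, 0.279 ± 0.0257 and 0.348 ± 0.0291, and that of Tek 1.34 ± 0.116, 1.07 ± 0.0638 and 0.109 ± 0.00499. Tie1 was thus highest in PVASCs by both ratios, by a narrow gap without overlap, while its Sub-ASC and Ab-ASC libraries overlapped in both. Tek was lowest in PVASCs by both ratios. Angpt2 per Cdh5 was 1.43 ± 0.0933 in Sub-ASCs, 1.86 ± 0.206 in Ab-ASCs and 0.614 ± 0.0187 in PVASCs, and so was also lowest in PVASCs.

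The genes most like each member were sought by Pearson's r of log2 CPM over the 9 libraries, among 16525 other genes tested. These libraries fall into 3 groups, so a high r mostly says that the depots rank and space alike. For Tie1 they were Cdh5 (r = 0.997), Tnfsf8 (r = 0.996) and Pecam1 (r = 0.996). Those for Angpt2 were Cdh19 (r = 0.997), Erg, an endothelial ETS factor (r = 0.997), and Myo18a (r = 0.997). Tek was nearest to Rhobtb1 (r = 0.999), Scn7a (r = 0.998) and Idh1 (r = 0.998). Angpt4 was followed most closely by Fut11, Mllt6 and Macrod1, each with r = 0.998, and Angpt1 by Tiparp (r = 0.999), Flrt2 (r = 0.998) and Fndc3a (r = 0.997). An r above 0.99 was reached by 22 genes with Tie1, 22 with Angpt2, 47 with Angpt1, 196 with Tek and 300 with Angpt4.

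Regulators of the receptors and alternative angiopoietin partners were measured from a list of 13 genes, of which 12 were tested. Between PVASCs and Sub-ASCs 7 were higher and 5 lower, or 100% called against 70.4% of all genes. Their median log2 fold change was 0.72 (all genes -0.011). Between PVASCs and Ab-ASCs 3 were higher and 6 lower with a median of -0.12, and between Ab-ASCs and Sub-ASCs 5 were higher and 7 lower with a median of -0.55. These were 75% and 100% called, against 56.9% and 75.3% of all genes. Ptprb encodes VE-PTP, the phosphatase that removes phosphate from Tie2. It was at 64.4 CPM in PVASCs, 8.32 CPM in Sub-ASCs and 3.73 CPM in Ab-ASCs, with log2 fold changes of 2.95 (adjusted p = 1.89e-10) and 4.09 (adjusted p = 1.96e-10) for PVASCs. Svep1, a large matrix protein that binds Tie1, went the other way and was highest in Sub-ASCs, at 1295 CPM, followed by 854 CPM in Ab-ASCs and 317 CPM in PVASCs (adjusted p = 1.33e-12 for PVASCs against Sub-ASCs). Lect2, another Tie1 ligand, had too few reads to be tested.

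The proteases that shed the receptors also differed by depot. Mmp14, a membrane metalloproteinase that cleaves Tie2, was at 2468 CPM in Sub-ASCs, 797 CPM in Ab-ASCs and 595 CPM in PVASCs. Adam17, which sheds many receptors, was at 301, 101 and 85.5 CPM in the same order, and its fall in PVASCs against Sub-ASCs had a log2 fold change of -1.82 (adjusted p = 9.11e-10). Adam10 was higher in PVASCs than in Ab-ASCs, with a log2 fold change of 0.88 (adjusted p = 9.08e-05). Integrins can bind angiopoietins as well. Itga5, the alpha chain of the fibronectin receptor, was highest in Ab-ASCs at 2114 CPM, against 766 CPM in PVASCs and 169 CPM in Sub-ASCs (log2 fold change 3.64 for Ab-ASCs against Sub-ASCs, adjusted p = 9.84e-14). Itgb1 was higher in PVASCs and in Ab-ASCs than in Sub-ASCs, with a log2 fold change of 1.05 in each comparison, and its log2 fold change between PVASCs and Ab-ASCs was 0.00 (adjusted p = 0.965). Itga9, the alpha chain that pairs with it in another integrin, was at 212 CPM in Ab-ASCs, 61.2 CPM in Sub-ASCs and 47.1 CPM in PVASCs, and was lower in PVASCs than in Sub-ASCs (log2 fold change -0.38, adjusted p = 0.000244).

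Angiopoietin-like genes encode secreted relatives that do not bind Tie2. Of 7 listed, 6 were tested. Between PVASCs and Ab-ASCs 5 were lower and none was higher in PVASCs, with a median log2 fold change of -1.13. Against Sub-ASCs 2 were higher and 3 lower in PVASCs with a median of -0.62, and 2 were higher and 2 lower in Ab-ASCs with a median of 0.21. In the order given, 83.3%, 83.3% and 66.7% were called, against 56.9%, 70.4% and 75.3% of all genes. Angptl2, a proinflammatory factor of fat tissue, was at 1317 CPM in Sub-ASCs, 640 CPM in Ab-ASCs and 276 CPM in PVASCs, so that it fell in PVASCs with a log2 fold change of -2.25 against Sub-ASCs (adjusted p = 1.80e-12). Angptl4, an inhibitor of lipoprotein lipase, was at 291, 254 and 114 CPM in the same order. Angptl7 was highest in Ab-ASCs, at 7.77 CPM, and at 0.309 CPM in Sub-ASCs (log2 fold change 4.64, adjusted p = 3.80e-09).

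**Figure D5:**
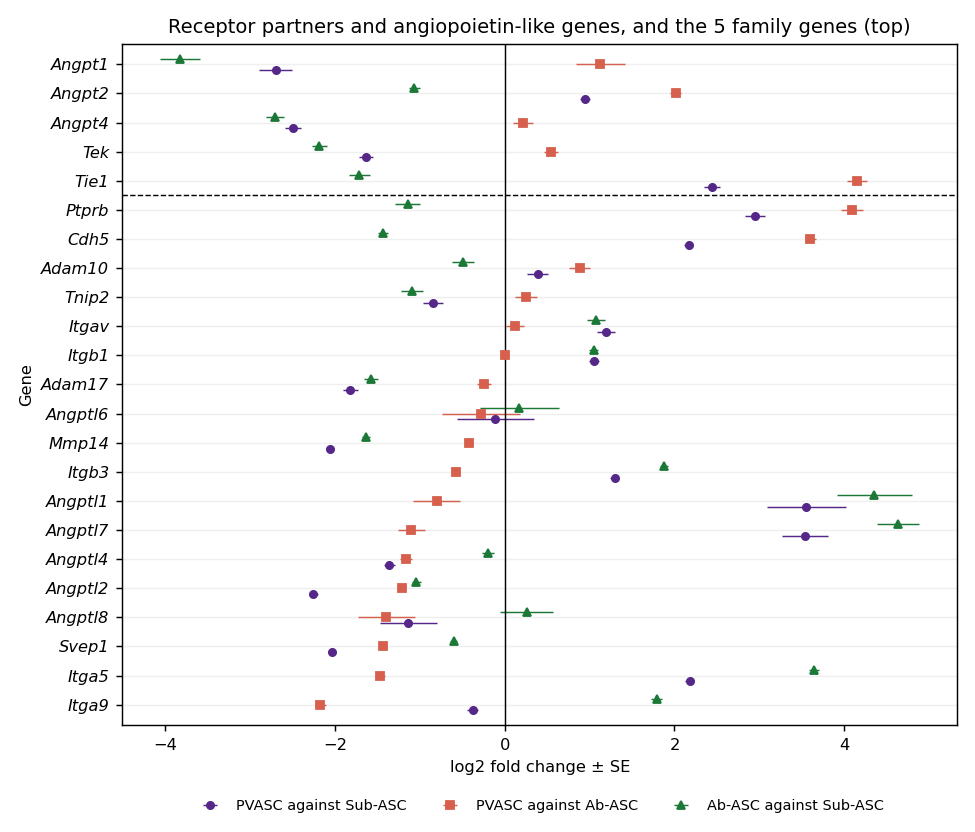
Fitted log2 fold changes with standard errors for the tested receptor partners and angiopoietin-like genes and, above the dashed line, the 5 family genes. Circles are PVASCs against Sub-ASCs, squares PVASCs against Ab-ASCs and triangles Ab-ASCs against Sub-ASCs. Ptprb and Cdh5 lie where Tie1 does, and Svep1 and Mmp14 have their circles on the side of Tek.

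Adaptors and kinases downstream of Tie2 were called in either direction. Of 19 genes tested from a list of 20, 8 were higher and 8 lower in PVASCs than in Sub-ASCs, with a median log2 fold change of -0.14. Between PVASCs and Ab-ASCs 8 were higher and 5 lower with a median of 0.15, and between Ab-ASCs and Sub-ASCs 6 were higher and 10 lower with a median of -0.20. In the order given, 84.2%, 68.4% and 84.2% were called, against 70.4%, 56.9% and 75.3% of all genes. Nos3, the endothelial nitric oxide synthase, was at 9.43 CPM in PVASCs, 5.51 CPM in Sub-ASCs and 0.594 CPM in Ab-ASCs (log2 fold change 3.97 for PVASCs against Ab-ASCs, adjusted p = 1.09e-08). Pik3cb, a catalytic subunit of PI3 kinase, was higher in PVASCs than in Sub-ASCs with a log2 fold change of 2.18 (adjusted p = 2.38e-10), and Grb14, an adaptor that binds Tie2, with one of 1.75 (adjusted p = 1.82e-09). Akt1, the kinase that acts for Tie2 in cell survival, was higher too, with a log2 fold change of 0.50 (adjusted p = 5.15e-06). Among the 8 that were lower were the adaptor Dok2 (log2 fold change -0.98), the PI3 kinase subunits Pik3r1 (-0.72) and Pik3ca (-0.31), Foxo3 (-0.69) and Akt2 (-0.46), of which all but Dok2 and Foxo3 were named after their values were seen. Foxo1, the Forkhead factor that Akt holds out of the nucleus and that drives Angpt2 in endothelium, was at 27.6 CPM in Sub-ASCs, 25.0 CPM in PVASCs and 13.8 CPM in Ab-ASCs. It was lower in Ab-ASCs than in Sub-ASCs, with a log2 fold change of -1.001 (adjusted p = 1.18e-07), and its difference between PVASCs and Sub-ASCs did not pass the test (-0.14, adjusted p = 0.0966).

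Transcription factors that act on Tie and angiopoietin genes in endothelium showed large differences of both signs. All 20 were tested. In PVASCs 13 were higher and 5 lower than in Sub-ASCs with a median log2 fold change of 0.78, and 12 were higher and 4 lower than in Ab-ASCs with a median of 0.42. In Ab-ASCs 8 were higher and 12 lower than in Sub-ASCs with a median of -0.51. In the order given, 90%, 80% and 100% were called, against 70.4%, 56.9% and 75.3% of all genes. The ranking of Tie1 without overlap was held by 5 of the 20 (Erg, Tal1, Sox18, Fli1 and Ets1), where 2.69% of all genes held it. The ranking of Tek was held by 2 of the 20, or 10%, a share like the 10.1% of all genes. Erg, Tal1 and Sox18 are also among the 17 endothelial markers counted above. Other factors of endothelial or blood cells did not hold the ranking of Tie1, such as Sox17 (log2 fold change -0.08, adjusted p = 0.699) and Lmo2 (-0.26, adjusted p = 0.107) for PVASCs against Sub-ASCs. Ets1, Sox17 and Lmo2 are named after their values were seen. Erg was at 38.3 CPM in PVASCs, 11.3 CPM in Sub-ASCs and 2.45 CPM in Ab-ASCs (log2 fold change 1.76, adjusted p = 1.83e-09, and 3.97, adjusted p = 5.74e-11, for PVASCs). Epas1 (HIF-2alpha), which activates Tek in endothelial cells, was at 714 CPM in Sub-ASCs, 32.4 CPM in Ab-ASCs and 27.5 CPM in PVASCs, a log2 fold change of -4.70 for PVASCs against Sub-ASCs (adjusted p = 5.47e-14). Foxc2, known to induce Angpt2, was at 54.4 CPM in PVASCs, 37.2 CPM in Ab-ASCs and 0.770 CPM in Sub-ASCs. Gata2 was at 47.8 and 47.1 CPM in PVASCs and Ab-ASCs and 3.36 CPM in Sub-ASCs, a log2 fold change of 3.84 for PVASCs against Sub-ASCs (adjusted p = 1.20e-11).

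Markers of other cell types moved between the depots as well, as most genes did. Of all genes, 70.4% were called for PVASCs against Sub-ASCs, 56.9% for PVASCs against Ab-ASCs and 75.3% for Ab-ASCs against Sub-ASCs. Of the 12 mural markers, 9 were higher and 3 lower in PVASCs than in Sub-ASCs with a median log2 fold change of 2.16, 6 were higher and 5 lower in Ab-ASCs than in Sub-ASCs with one of 1.82, and 4 were higher and 6 lower in PVASCs than in Ab-ASCs with one of -0.23. Their summed level was 167 to 169 FPKM in Sub-ASCs, 2490 to 3089 FPKM in Ab-ASCs and 1580 to 1665 FPKM in PVASCs. Acta2, the smooth muscle actin, gave 2489 FPKM of the Ab-ASC mean and 1405 FPKM of the PVASC mean but 29.6 FPKM in Sub-ASCs, where Pdgfrb led with 110 FPKM. The ranking of Tie1 without overlap was held by 2 of the 12 (Rgs5 and Notch3), or 16.7%, against 2.69% of all genes. Among the 3 lower in PVASCs than in Sub-ASCs were the pericyte markers Abcc9 (log2 fold change -7.66) and Kcnj8 (-3.92). Cnn1, a smooth muscle gene, was among the 9 higher, with a log2 fold change of 8.99. Macrophages and blood cells can express Tek. Of their 12 markers, relative to Sub-ASCs, 10 were lower and 2 higher in PVASCs, and likewise 10 were lower and 2 higher in Ab-ASCs, with median log2 fold changes of -1.01 and -0.76. In PVASCs 2 were higher and 6 lower than in Ab-ASCs, with a median of -0.33. The ranking of Tek without overlap was held by 1 of the 12, or 8.33%, near the 10.1% of all genes. This was Ptprc (CD45), at 8.93, 2.81 and 1.41 CPM in Sub-ASCs, PVASCs and Ab-ASCs. Summed, the list was at 241 to 256 FPKM in Sub-ASCs, 248 to 330 FPKM in Ab-ASCs and 243 to 252 FPKM in PVASCs. Lyz2, a lysozyme gene of macrophages, gave much of it, with means of 123 FPKM in Sub-ASCs, 206 FPKM in Ab-ASCs and 189 FPKM in PVASCs.

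Adipocyte markers were lower in PVASCs and in Ab-ASCs than in Sub-ASCs for all 4 tested of 6 listed, with median log2 fold changes of -2.76 and -3.35. Of all genes, 35.7% and 38.3% were lower in these comparisons. Between PVASCs and Ab-ASCs 2 were higher in PVASCs, with a median of 0.63. Plin1, Fabp4 and Lipe, or 3 of the 4, had the ranking of Tek without overlap, where 10.1% of all genes had it. The summed level was 34.2 to 37.5 FPKM in Sub-ASCs, 8.27 to 8.99 FPKM in Ab-ASCs and 10.8 to 11.3 FPKM in PVASCs, and Lep was at 0 reads in every library. Of 10 mesothelial markers, 9 were higher in PVASCs and 9 in Ab-ASCs than in Sub-ASCs, and 2 were higher and 8 lower in PVASCs than in Ab-ASCs, with a median of -1.31. Their summed level was 1.33 to 1.69 FPKM in Sub-ASCs, 44.1 to 49.1 FPKM in Ab-ASCs and 22.1 to 23.5 FPKM in PVASCs. Upk1b and Lrrn4 were at 0 reads in Sub-ASCs. Markers of the ASCs themselves were called in either direction, with 4 higher and 6 lower in PVASCs and the same counts in Ab-ASCs against Sub-ASCs, and 4 higher and 5 lower in PVASCs against Ab-ASCs. Their median log2 fold changes were -0.42, -1.57 and -0.06. Summed, they were at 3689 to 3908 FPKM in Sub-ASCs, 1595 to 1608 FPKM in Ab-ASCs and 1501 to 1553 FPKM in PVASCs. The part of these cell types in the differences of the family was not tested.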

How the data were processed

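Bulk mRNA sequencing of 9 libraries from mouse ASCs was analysed, with 3 libraries per group assigned from the labels. Raw read counts were deposited as 1 table of genes by libraries, with gene length and position. Per the labels, the submitters' processing notes name CASAVA 1.8, Bowtie 0.12.2, featureCounts 1.5.0-p3 and the builds mm8 and mm10, without their roles. Listed positions were those of GENCODE M21 on GRCm38 for 98.3% of 54532 genes. Strandedness of the counting is not given in the sources used here. No per-sample column was left out.

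Counts were filtered by filterByExpr, scaled by TMM and fitted for all 9 libraries without covariates in edgeR 4.0.16 (R 4.3.3). The quasi-likelihood F-test with Benjamini-Hochberg adjustment over all 16526 genes tested was used, with a threshold of 0.05. This procedure was tested on simulated data. CPM and FPKM were calculated here with TMM-scaled library totals. Errors are SDs over 3 libraries. The standard error of a fitted log2 fold change was obtained from its F value. The members and gene lists were chosen with earlier results of these data known. Within lists, named genes were up to 6 with the largest called change per comparison, up to 4 with the highest FPKM, markers near 0 reads, and the 3 genes nearest to each member by Pearson's r (log2 CPM, prior count 2). Promoter sequences came from RefSeq (GRCm38.p6) and were found for 3 of the 5 members. Alternatives were DESeq2 1.42.0, RLE size factors, omission of the filter, a minimum of 10 reads in each library, fits restricted to the compared groups, the replicate number as a block, and leaving out each library. Plots were made with Python 3.11.15. All other experiments of the study were not analysed here.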

Additional observations from a re-analysis of the deposited data

How the results depend on the processing

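The alternatives moved none of the 222 recomputed log2 fold changes of the members by more than the spread between libraries, and none changed sign. At least 10 reads in every library left Angpt1 untested. Angpt1 varied most. Its value for PVASCs against Ab-ASCs was 0.79 without Ab-ASC replicate 1 and 1.63 without Ab-ASC replicate 2, and for Ab-ASCs against Sub-ASCs -3.49 and -4.33 in the same order. Tie1 varied from 4.03 to 4.30 for PVASCs against Ab-ASCs and from 2.39 to 2.51 against Sub-ASCs, and Tek from -1.69 to -1.57 for PVASCs against Sub-ASCs. Of the genes called in the lists, none changed sign under any alternative. Over all genes, the split by direction between PVASCs and Ab-ASCs depended on the fit. The main fit had 4088 genes higher and 5308 lower in PVASCs, and the fit of only the compared groups had 4305 higher and 4149 lower. With the replicate number as a block, 11458, 9183 and 12302 genes were called in the 3 comparisons (PVASCs with Sub-ASCs, then with Ab-ASCs, then Ab-ASCs with Sub-ASCs), in place of 11628, 9396 and 12442. Of the 57 pathway genes tested, 52, 41 and 52 were called with the block, in place of 51, 43 and 52. Same-numbered libraries deviated together only weakly, with correlations across genes of -0.05 to 0.10, so no pairing was used. A requirement of at least 10 reads in every library removed low genes, which left 2 mesothelial markers called in each comparison and 3, 3 and 2 angiopoietin-like genes. It left 2, 1 and 2 adipocyte markers called, and 7 mural markers for Ab-ASCs against Sub-ASCs in place of 11. With only the compared groups fitted, 1 adipocyte marker was called between PVASCs and Ab-ASCs in place of 2. Vwf lost both of its calls under DESeq2 and without any of several single libraries, and between PVASCs and Ab-ASCs the calls of Klf2 and of the macrophage marker Itgam were lost under most alternatives and those of Adam17, Col3a1, Tyrobp and Angptl1 under several. Itgam also lost its call between Ab-ASCs and Sub-ASCs under most alternatives. Depth limits Angpt1 in Ab-ASCs most, with 7 to 34 reads.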
